A study of Mus musculus with 30 samples.

Results

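The HOXA and HOXB genes described here are 10 genes of the mouse Hox clusters, namely Hoxa3, Hoxa5, Hoxa7, Hoxa9 and Hoxa10 of the Hoxa cluster and Hoxb2, Hoxb3, Hoxb4, Hoxb5 and Hoxb6 of the Hoxb cluster. They were chosen by symbol from a list, and each of the 10 was found under 1 of the 46113 NCBI gene identifiers in the deposited count files. Hox genes encode transcription factors that bind DNA through the homeodomain, a stretch of amino acids encoded by the homeobox. In mammals they lie in clusters, and neighbours in a cluster are often transcribed together. Haematopoietic stem cells (HSCs), which renew themselves and give rise to all blood cells, express mainly genes of the Hoxa and Hoxb clusters. The HOX proteins bind DNA together with partners of the TALE class such as MEIS1, and in blood cells their transcription is kept up by the histone methyltransferase KMT2A (MLL).

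The study holds 30 RNA-seq libraries. Each started from total RNA of 100 sorted bone marrow cells, and the mice were C57BL/6, 8 to 10 weeks old. In the 5-fluorouracil (5-FU) experiment, HSCs gated as CD150+ CD48- EPCR+ Lineage- came from untreated mice (n = 4) and from mice 6 days (n = 4) and 10 days (n = 6) after 5-FU, a drug toxic to cycling cells. In the culture experiment, HSCs of untreated mice were compared after 1 day in culture (n = 4) and uncultured (n = 4). In the CD48 experiment, CD150+ CD48+ EPCR+ Lineage- haematopoietic progenitor cells (HPCs, n = 4) were compared with CD48- HSCs (n = 4), both from mice 10 days after 5-FU. The labels do not say whether libraries of a group came from separate mice, so p-values measure only the spread between libraries, which may be technical. Levels are given as CPM, the total exon reads of a gene scaled by library size. Changes are log2 fold changes from edgeR's quasi-likelihood test, and a change passed where its p-value, adjusted over all genes tested (Benjamini-Hochberg), was under 0.05. In bulk samples of this kind, fewer cells that express a gene and less RNA of it per cell cannot be told apart.

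The homeoboxes of the paralogues were read first, because near-identical stretches can share reads. Each of the 10 homeoboxes held 180 bases, taken from GENCODE M21 transcripts of GRCm38. Over the 45 pairs, identity ran from 57.8 to 93.9% of bases, and the longest identical run in any pair was 47 bases, between Hoxa7 and Hoxb4. Hoxa3 and Hoxb3, the paralogues of group 3, were the closest pair at 93.9%, with 11 differing bases. Hoxa9 and Hoxa10, which belong to the AbdB-like genes at the 5' side of the cluster, shared 77.2% of bases, and Hoxa5 and Hoxb5 shared 83.9%. The homeobox of Hoxa10 is shown as an example of the stretch compared, 5' to 3' on the coding strand, with the codons of the DNA recognition helix core in capitals.
Hoxa10: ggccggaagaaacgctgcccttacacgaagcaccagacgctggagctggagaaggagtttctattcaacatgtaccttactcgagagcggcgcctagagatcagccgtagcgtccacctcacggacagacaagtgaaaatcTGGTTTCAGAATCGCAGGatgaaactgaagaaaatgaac

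RefSeq promoter windows of GRCm38.p6 (250 bases before to 50 after a gene's start) were given for 6 of the 10 genes (Hoxa3, Hoxa5, Hoxa7, Hoxa9, Hoxa10 and Hoxb4), 7 windows in all. They were searched on both strands for the E-box CACGTG, bound by USF factors, for CCAAT, bound by NF-Y, for TGATTNAT, a composite motif of HOX proteins and a TALE partner, and for the GC box GGGCGG, none of which overlaps another. Of 32851 RefSeq windows, 7.15% hold CACGTG, 37.4% CCAAT, 3.22% TGATTNAT and 35.7% GGGCGG. Neither CACGTG nor TGATTNAT was found in the 7 windows, CCAAT was found once in Hoxa5 and once in the second window of Hoxa10, and GGGCGG was found once in Hoxa9 and 2 times in the first window of Hoxa10. The windows of Hoxa5 and Hoxa9 are shown because these genes of 1 cluster hold different motifs, with matches in capitals (CCAAT reads ATTGG on this strand). The Hoxa5 window is chr6:52204538-52204837 and the Hoxa9 window chr6:52227321-52227620, both on the minus strand. A match describes letters in the window and no binding was measured.
Hoxa5: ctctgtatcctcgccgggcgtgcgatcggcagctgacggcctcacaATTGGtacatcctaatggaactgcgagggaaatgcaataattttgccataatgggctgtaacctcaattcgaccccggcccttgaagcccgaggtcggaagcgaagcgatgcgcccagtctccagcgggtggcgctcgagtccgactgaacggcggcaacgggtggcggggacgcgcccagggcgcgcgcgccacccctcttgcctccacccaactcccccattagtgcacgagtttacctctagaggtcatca
Hoxa9: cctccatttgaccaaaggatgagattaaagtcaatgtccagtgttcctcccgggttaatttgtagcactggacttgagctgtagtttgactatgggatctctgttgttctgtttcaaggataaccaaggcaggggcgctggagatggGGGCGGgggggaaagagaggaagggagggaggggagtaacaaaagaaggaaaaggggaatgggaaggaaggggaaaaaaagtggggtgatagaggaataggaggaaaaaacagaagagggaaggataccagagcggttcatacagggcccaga

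The Hoxa genes lie on the minus strand of chromosome 6 between 52169062 (the end of Hoxa3) and 52240854 (the start of Hoxa10), and the Hoxb genes on the plus strand of chromosome 11 between 96292710 (Hoxb6) and 96354020 (Hoxb2), on mm10. The annotated spans overlap, and this limits how far exon reads can be given to single genes. Hoxa5 lies inside the long span of Hoxa3, Hoxb4 lies inside that of Hoxb3, and Hoxb5 and Hoxb6 lie inside the span of the antisense gene Hoxb5os. Over the 30 libraries, reads counted as unique to the gene made up 100% of the exon reads of Hoxa7, Hoxa9 and Hoxa10, 73.5% of those of Hoxb2, 67.0% of those of Hoxa3 and 49.7% of those of Hoxb3. For Hoxb5 the share was 6.03%, for Hoxb6 2.34%, for Hoxa5 1.47% and for Hoxb4 1.06%, which is close to their share of exon-exon junction reads. Values of Hoxa5, Hoxb4, Hoxb5 and Hoxb6 can therefore hold reads of the gene around them, and sums over shared spans are given below beside the single genes. The labels name no kit that marks strand, so reads of an antisense partner cannot be told apart.

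**Figure D1:**
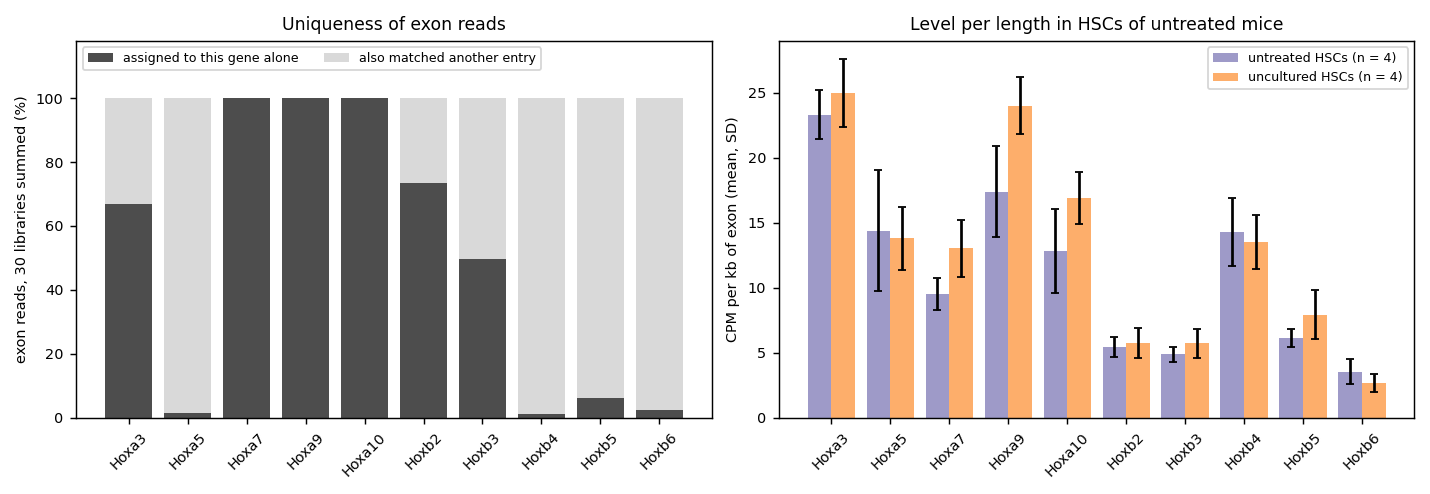
Left, percent of exon reads over 30 libraries that were assigned to 1 gene alone (dark) or that also matched another entry (light). Right, CPM per kb of exon in HSCs of untreated mice from both experiments (bars are means and error bars SD, n = 4 each); Hoxa3 and Hoxa9 stand highest and Hoxb6 lowest.

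Library depth ran from 5208722 to 12243208 exon reads. The listed HSC markers and genes of the sort gate had a summed level of 1825 CPM or more in every library. This list includes Cd48, which HSCs are gated to lack, with means of 0.428 to 3.72 CPM in the HSC groups and 51.5 CPM in HPCs. In 7 libraries, transcripts of another cell type reached at least 3 times their group's median and 100 CPM. These were HPC replicate 3 and day 6 replicate 1 for macrophage markers, CD48- HSC replicate 3 for erythroid and macrophage markers, uncultured replicate 3 for erythroid markers, and day 10 replicate 3, uncultured replicate 1 and CD48- HSC replicate 4 for stromal markers. The share of reads on introns moved with the groups, at 68.5 ± 0.76% in untreated HSCs, 61.8 ± 0.80% at day 6 and 64.3 ± 1.6% at day 10, at 62.5 ± 0.17% in cultured and 70.4 ± 0.50% in uncultured HSCs, and at 64.2 ± 1.4% in HPCs and 67.4 ± 1.4% in CD48- HSCs (SD). The part of these differences in the Hox values was not tested, except that counts of called genes were repeated without the 7 libraries. They were picked against their own group's median, so other libraries can also carry such transcripts. A difference shared by a whole group stays in those repeats.

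In HSCs of untreated mice, Hoxa3 and Hoxa9 had the highest levels per length of the 10 genes and Hoxb6 the lowest. In CPM per kb of exon, Hoxa3 averaged 23.3 ± 1.9 in untreated and 25.02 ± 2.62 in uncultured HSCs, and Hoxa9 averaged 17.4 ± 3.5 and 24.0 ± 2.2 in those groups (SD, n = 4 each). The libraries of these 2 genes overlapped in both groups. Next in untreated HSCs came Hoxa5 at 14.4, Hoxb4 at 14.3, Hoxa10 at 12.8 and Hoxa7 at 9.52 CPM per kb, each overlapping its neighbour in the order. Exon reads of Hoxa5, Hoxb4, Hoxb5 and Hoxb6 were nearly all shared, so the places of these genes in the order are not settled. Summed over the untreated libraries, junction reads were 4 for Hoxa5 and 4 for Hoxb4, against 65 for Hoxa7 and 29 for Hoxa10. Hoxb5 (6.14), Hoxb2 (5.44) and Hoxb3 (4.86) formed an overlapping group under Hoxa7, from which they did not overlap, and Hoxb6 stood at 3.53 CPM per kb without overlapping Hoxb3. Hoxb6 was last in all 7 groups. Hoxa9 came first, before Hoxa3, at day 6 (13.8 against 12.5 CPM per kb), in cultured HSCs (10.4 against 5.73) and in HPCs (17.3 against 13.6), and the libraries of the 2 genes did not overlap in cultured HSCs or HPCs.

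At 6 days after 5-FU, exon-read levels of Hoxa3, Hoxa5, Hoxa7, Hoxb3, Hoxb4, Hoxb5 and Hoxb6 were lower in HSCs than in HSCs of untreated mice, and those of Hoxa5, Hoxb4, Hoxb5 and Hoxb6 hold shared reads. Of the 10 genes 7 passed the test, all lower, where 25.7% of all 12886 genes tested passed as lower. The median log2 fold change of the 10 genes was -0.75, against -0.04 over all genes. The groups did not overlap, with day 6 lower, for 6 of the 10, against 24.6% of all genes. The remaining Hoxa9, Hoxa10 and Hoxb2 had log2 fold changes of -0.33, -0.31 and -0.42, with adjusted p of 0.103, 0.191 and 0.147.

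Hoxa3 is an anterior gene of its cluster. Its 4 untreated libraries read 185, 166, 179 and 201 CPM, its day 6 libraries 114, 99.0, 87.8 and 92.0 CPM, and its 6 day 10 libraries 109 to 156 CPM with a median of 130 CPM. Values were lowest at day 6, with some overlap between day 6 and day 10, and both 5-FU groups lie below every untreated library. The log2 fold change was -0.89 ± 0.12 (SE) at day 6 and -0.47 ± 0.11 at day 10 against untreated, with adjusted p of 2.13e-05 and 0.0031, and 0.42 ± 0.11 at day 10 against day 6 (adjusted p = 0.0101).

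Hoxb4, whose overexpression expands mouse HSCs, read 34.6, 46.0, 35.7 and 30.3 CPM in untreated HSCs. At day 6 the libraries read 18.6, 16.7, 20.5 and 17.1 CPM, and at day 10 they ran from 24.0 to 31.5 CPM with a median of 29.2 CPM. Every day 6 library lay below every other library of the experiment, while day 10 overlapped untreated. The fold change was -1.003 ± 0.137 on the log2 scale at day 6 (adjusted p = 2.43e-05), -0.37 ± 0.12 at day 10 against untreated (0.0239) and 0.63 ± 0.13 at day 10 against day 6 (0.00204). Hoxb4 at day 10 against untreated did not pass without untreated replicate 2 (-0.25, adjusted p = 0.113) or day 10 replicate 5 (-0.33, adjusted p = 0.0529).

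Its neighbour Hoxb3, which disturbs lymphoid development in mice when overexpressed, read 47.01, 46.7, 37.3 and 38.1 CPM in untreated HSCs, 24.5, 20.5, 25.7 and 33.2 CPM at day 6, and 33.2 to 45.6 CPM with a median of 41.9 CPM at day 10. It fell at day 6 (-0.70 ± 0.15, adjusted p = 0.000886) and was higher at day 10 than at day 6 (0.65 ± 0.13, adjusted p = 0.00233). At day 10 against untreated the difference was -0.05, with a 95% interval of -0.33 to 0.23.

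Hoxb5 is a marker of long-term HSCs in mice. It read 10.1, 11.1, 12.4 and 12.9 CPM in untreated HSCs, 6.61, 5.93, 7.24 and 6.91 CPM at day 6, and 6.68 to 14.2 CPM with a median of 10.8 CPM at day 10. The day 6 libraries lay below every untreated library (log2 fold change -0.80 ± 0.22, adjusted p = 0.00605) and day 10 was higher than day 6 (0.71 ± 0.20, adjusted p = 0.0141), with overlap. Without the 7 libraries that carried transcripts of other cells, Hoxb5 at day 10 against day 6 had 0.63 and an adjusted p of 0.0600. Hoxb6, which expands HSCs and myeloid cells when overexpressed in mice, had 6.00 ± 1.61 CPM in untreated HSCs, 2.78 ± 0.225 CPM at day 6 and 3.94 ± 1.43 CPM at day 10 (SD), and passed at day 6 only among the 3 comparisons of this experiment (-1.10 ± 0.33, adjusted p = 0.0115).

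Neither of the AbdB-like genes passed at day 6. Hoxa9, which is required for normal HSC function in mice and drives leukaemia when overexpressed with Meis1, read 69.4, 42.4, 59.2 and 53.8 CPM in untreated HSCs, 43.6, 44.9, 44.8 and 44.9 CPM at day 6 and 38.1 to 62.9 CPM with a median of 47.7 CPM at day 10. All 3 groups overlapped. Its change at day 6 had a 95% interval of -0.69 to 0.02 on the log2 scale, and without untreated replicate 2 it passed (-0.45, adjusted p = 0.0327). Hoxa10, another gene whose overexpression alters myeloid progenitors, averaged 40.2 ± 10.2 CPM in untreated HSCs, 32.5 ± 5.4 CPM at day 6 and 29.0 ± 5.7 CPM at day 10. It passed at day 10 against untreated (-0.47 ± 0.17, adjusted p = 0.0429) although these groups overlapped, and it no longer passed without any 1 of untreated replicates 1 and 2 and day 10 replicates 1, 2, 4 and 6 (adjusted p 0.0537 to 0.157).

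Hoxa7, which with Hoxa9 is a target of MLL fusion proteins in leukaemia, averaged 18.6 ± 2.3 CPM in untreated HSCs, 10.7 ± 1.9 CPM at day 6 and 13.6 ± 2.4 CPM at day 10, and both 5-FU groups lay below every untreated library. It fell at day 6 (-0.80 ± 0.18, adjusted p = 0.00186) and at day 10 (-0.45 ± 0.16, adjusted p = 0.0377), but at day 10 it no longer passed without any 1 of untreated replicates 1 and 4 and day 10 replicates 1, 3 and 6 (adjusted p 0.0655 to 0.114). Hoxa5, which favours myeloid over erythroid output when overexpressed in human progenitors, averaged 27.0 ± 8.7 CPM in untreated HSCs, 19.0 ± 2.2 CPM at day 6 and 23.8 ± 3.4 CPM at day 10. Its fall at day 6 (-0.51 ± 0.19, adjusted p = 0.0388) no longer passed without any 1 of untreated replicates 1 and 4 and day 6 replicates 2, 3 and 4, where adjusted p was 0.0582 to 0.176. The change of Hoxa5 without untreated replicate 1, its highest library at 38.9 CPM, was -0.28. The few junction reads of Hoxa5, given with the other read classes, were not fewer at day 6 (9 reads) than in untreated HSCs (4 reads). Hoxb2, the most anterior of the 5 Hoxb genes, averaged 9.99 ± 1.47, 7.47 ± 1.97 and 10.3 ± 2.2 CPM in untreated, day 6 and day 10 HSCs and passed in no comparison of this experiment.

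At day 10, against untreated, 4 of the 10 genes were called, all lower (Hoxa3, Hoxa7, Hoxa10 and Hoxb4), where 18.1% of all genes were lower, and the median of the 10 was -0.29. The libraries of 2 of them, Hoxa3 and Hoxa7, did not overlap, against 11.7% of all genes. With single replicates left out, the count ran from 2 to 4, and it was 2 without untreated replicate 1 or 2 or day 10 replicate 1 or 6. Against day 6, 4 genes were called, all higher (Hoxa3, Hoxb3, Hoxb4 and Hoxb5), where 14.7% of all genes were higher. The libraries of 2, Hoxb3 and Hoxb4, did not overlap, against 10.5% of all genes, and the median of the 10 was 0.44, against -0.02 over all genes. For Hoxb3 the margin was very narrow, with the highest day 6 library at 33.19 CPM and the lowest day 10 library at 33.20 CPM. These comparisons share libraries, so their values are given side by side and their overlap is not read. Summed over the 5 genes, the listed Hoxa genes held 325 ± 32 CPM in untreated HSCs, 205 ± 13 CPM at day 6 and 247 ± 37 CPM at day 10, and the listed Hoxb genes held 107 ± 10, 61.1 ± 6.0 and 94.3 ± 11.8 CPM in those groups (SD). Over the same groups the summed HSC and sort gate markers had medians of 5040, 2626 and 3093 CPM and the summed macrophage markers 30.8, 94.7 and 83.8 CPM. The 8 erythroid markers summed to 2394 to 6327 CPM in untreated HSCs, 293 to 427 CPM at day 6 (Hba-a2 and Slc4a1 among those at 0) and 293 to 1447 CPM at day 10. Medians of the lymphoid markers were 21.5, 0.524 and 0.691 CPM, of the myeloid granule markers 34.3, 12.7 and 48.8 CPM, of the stromal markers 52.4, 16.4 and 24.8 CPM, of the endothelial markers 136, 101.1 and 192 CPM and of the megakaryocyte markers 627, 663 and 919 CPM in those groups. The megakaryocyte sum was mostly Vwf (means of 543, 664 and 887 CPM). Itga2b (61.9, 20.4 and 37.8 CPM) and Gp9 (20.5, 7.66 and 11.4 CPM) had their highest means in untreated HSCs. The part of these markers in the Hox values was not tested. Without the 7 libraries, 7 of the 10 genes were still called at day 6, 3 at day 10 against untreated and 3 at day 10 against day 6. No untreated library is among the 7, so the erythroid difference given above stays in these fits.

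**Figure D2:**
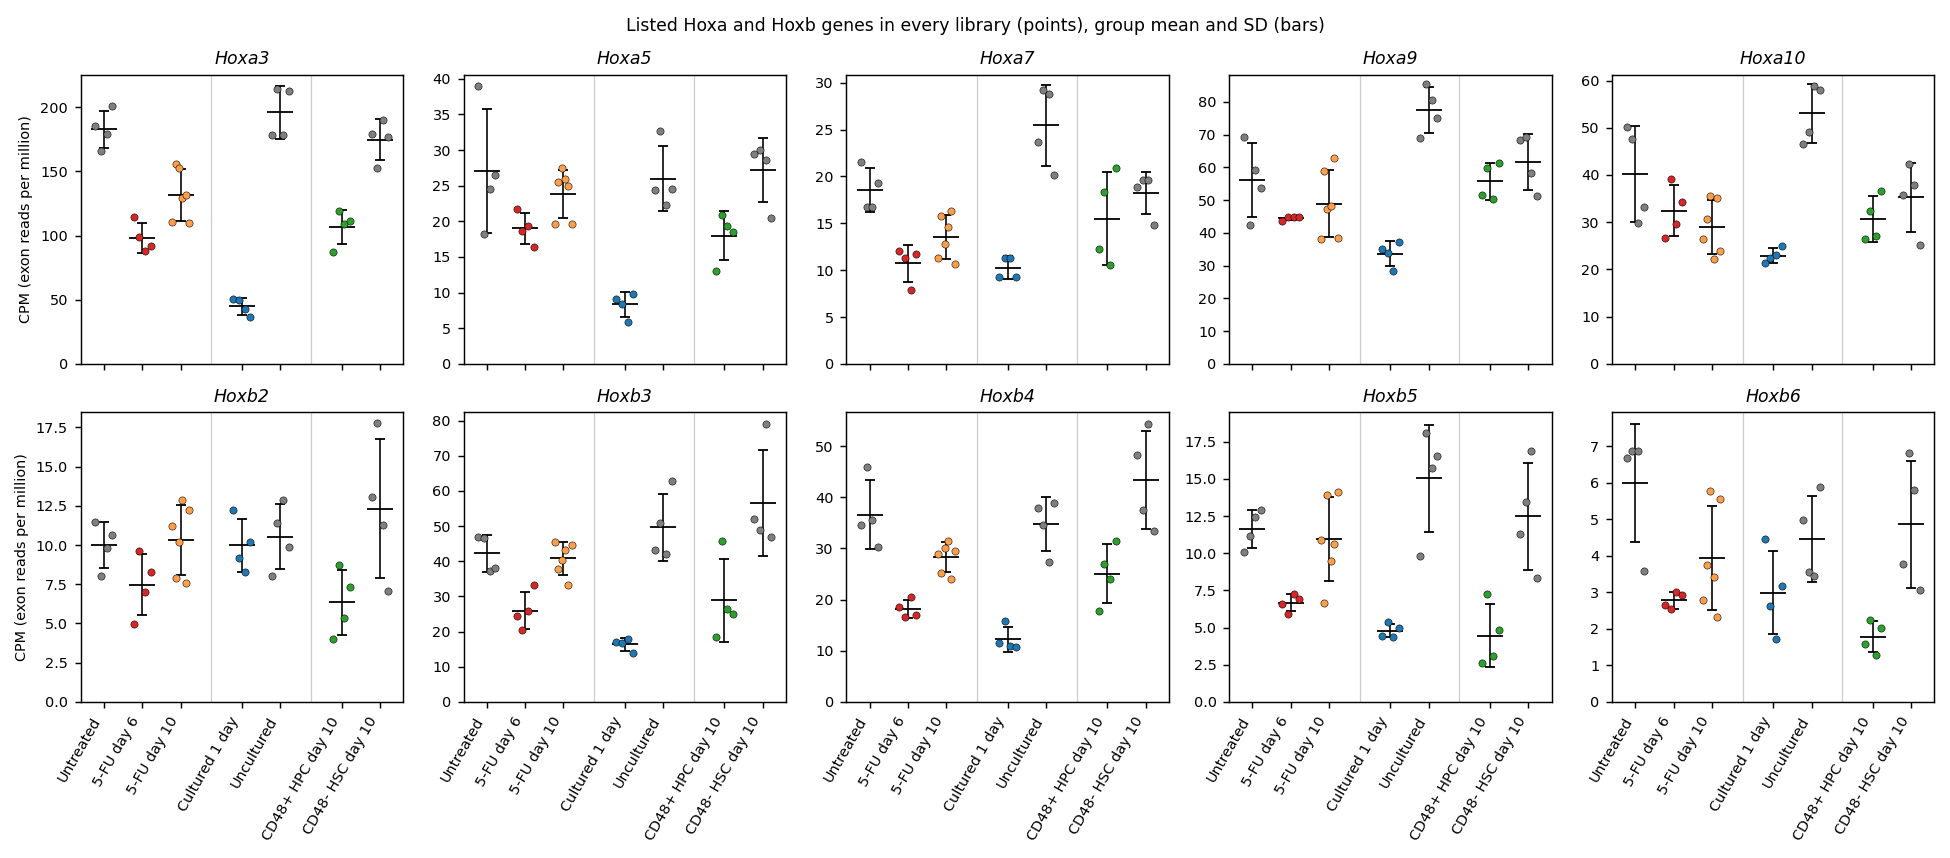
CPM of each gene in every library (points) with group mean and SD (black bars), in the 5-FU, culture and CD48 experiments from left to right, each panel with its own linear axis from 0. Cultured HSCs lie below every uncultured library for 8 genes, and the day 6 libraries below every untreated library for 6.

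After 1 day in culture, exon-read levels of 8 of the 10 genes were lower than in uncultured HSCs, and their libraries did not overlap for any of the 8. Of all 12386 genes tested 33.8% were lower, and 31.1% were lower without overlap. The median log2 fold change of the 10 genes was -1.38, against -0.01 over all genes. Hoxa3 changed most, Hoxa5, Hoxb3, Hoxb4 and Hoxb5 by -1.48 to -1.62, and Hoxa7, Hoxa9 and Hoxa10 by -1.18 to -1.29. Hoxb2 and Hoxb6 did not pass the test.

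Hoxa3 read 50.3, 49.8, 43.0 and 36.3 CPM in cultured HSCs, against 178, 215, 178 and 213 CPM in uncultured HSCs. All 4 cultured libraries lay far below the lowest uncultured library. The log2 fold change was -2.10 ± 0.11 (SE, adjusted p = 1.23e-08), a 4.29-fold lower level. Hoxa9 read 35.2, 33.9, 28.3 and 37.2 CPM in cultured HSCs, against 69.1, 85.5, 80.5 and 75.2 CPM in uncultured HSCs, a change of -1.18 ± 0.11 (adjusted p = 7.77e-07). Hoxa10 followed with 22.9 ± 1.5 CPM in cultured and 53.1 ± 6.3 CPM in uncultured HSCs (-1.19 ± 0.11, adjusted p = 1.12e-06). Hoxa7 held 10.3 ± 1.2 CPM in cultured and 25.5 ± 4.3 CPM in uncultured HSCs, and Hoxa5 8.34 ± 1.69 CPM in cultured and 26.0 ± 4.5 CPM in uncultured HSCs.

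In the Hoxb cluster, Hoxb4 read 11.4, 15.9, 10.95 and 10.6 CPM in cultured HSCs, against 37.9, 34.7, 27.3 and 38.9 CPM in uncultured HSCs (-1.48 ± 0.17, adjusted p = 6.61e-06). Hoxb3 averaged 16.3 ± 1.7 CPM in cultured and 49.7 ± 9.5 CPM in uncultured HSCs (-1.58 ± 0.15, adjusted p = 1.12e-06). Hoxb5 averaged 4.80 ± 0.47 CPM in cultured and 15.03 ± 3.63 CPM in uncultured HSCs (-1.62 ± 0.23, adjusted p = 4.69e-05). Hoxb2 stood apart from these neighbours, with 12.2, 9.17, 8.29 and 10.2 CPM in cultured HSCs, against 8.01, 11.4, 12.9 and 9.85 CPM in uncultured HSCs. The 2 groups overlapped, and the 95% interval of its change was -0.52 to 0.41. Hoxb6 had 2.99 ± 1.15 CPM in cultured and 4.47 ± 1.17 CPM in uncultured HSCs, a change of -0.53 with an interval of -1.30 to 0.24.

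The 8 calls held whichever library was left out and also without the 7 libraries named above. Macrophage markers summed to 2.63 to 5.68 CPM in cultured and 29.3 to 35.1 CPM in uncultured HSCs, with C1qa, C1qb, Cd5l, Vcam1 and Adgre1 at 0 in all cultured libraries. Myeloid granule markers summed to 8.46 to 14.1 CPM in cultured and 74.3 to 577 CPM in uncultured HSCs, and stromal markers to 9.81 to 16.3 CPM in cultured and 26.7 to 398 CPM in uncultured HSCs. Erythroid markers summed to 467 to 638 CPM in cultured and 65.2 to 4600 CPM in uncultured HSCs, with overlap (medians 563 and 1499 CPM). In the same order, medians were 94.1 and 114 CPM for endothelial, 356 and 437 CPM for megakaryocyte and 0.215 and 1.16 CPM for lymphoid markers. Summed HSC and sort gate markers ran from 2365 to 2583 CPM in cultured and from 4262 to 4644 CPM in uncultured HSCs, and their part in the Hox values was not tested.

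**Figure D3:**
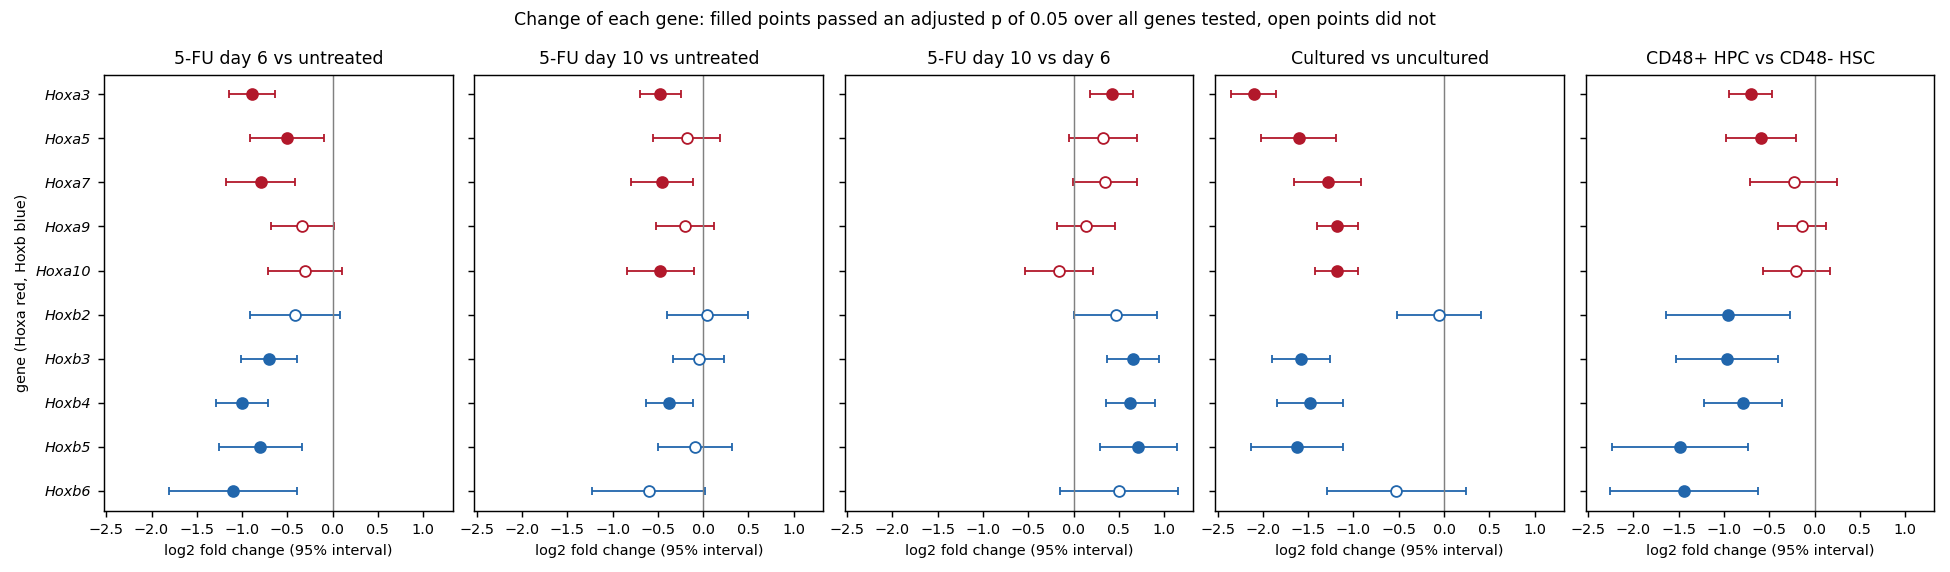
Log2 fold change of each gene with its 95% interval in 5 comparisons (first-named group over the second), Hoxa genes in red and Hoxb genes in blue. Filled points passed an adjusted p of 0.05 over all genes tested; the count is 7 of 10 at day 6, 4 at day 10 against untreated, 4 at day 10 against day 6, 8 in culture and 7 in HPCs.

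The effect of culture and the effect of 5-FU at day 6 were compared in 1 fit over the 30 libraries, as the change in culture minus the change at day 6. The change in culture was more negative for Hoxa3 (-1.23 ± 0.17, adjusted p = 1.01e-05), Hoxa5 (-1.12 ± 0.28, 0.00624), Hoxa9 (-0.87 ± 0.21, 0.0043), Hoxa10 (-0.90 ± 0.25, 0.0142) and Hoxb3 (-0.90 ± 0.29, 0.0363). That is 5 of the 10 genes, where 8.77% of all 13468 genes tested were more negative. For Hoxa7, Hoxb4, Hoxb5, Hoxb2 and Hoxb6 the differences were -0.51, -0.50, -0.85, 0.34 and 0.54, with adjusted p of 0.218, 0.181, 0.132, 0.585 and 0.495. The call of Hoxb3 lay near the threshold. It no longer passed without any 1 of untreated replicates 3 and 4, day 6 replicates 1, 3 and 4, uncultured replicates 2 and 4 and cultured replicates 1, 2 and 4 (adjusted p 0.0514 to 0.091). Its difference in those fits was -0.76 to -0.92. The contrast crosses experiments, so a difference between experiments and a difference between treatments cannot be told apart.

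The 2 sets of HSCs from untreated mice differed for some of these genes. Hoxa9 averaged 77.6 ± 7.1 CPM in the uncultured and 56.2 ± 11.2 CPM in the untreated libraries, Hoxa10 53.1 ± 6.3 and 40.2 ± 10.2 CPM, and Hoxa7 25.5 ± 4.3 and 18.6 ± 2.3 CPM in the same order, while Hoxa3 averaged 196 ± 21 and 183 ± 15 CPM and Hoxb4 34.7 ± 5.3 and 36.6 ± 6.7 CPM. Set against the uncultured libraries instead of the untreated ones, day 6 HSCs had a Hoxa9 change of -0.80 (adjusted p = 3.83e-05) and a Hoxa10 change of -0.71 (adjusted p = 0.00125), so both then passed, and Hoxa5 and Hoxb6 did not (adjusted p 0.052 and 0.0976). With the same swap at day 10, Hoxa9 passed (-0.66, adjusted p = 0.000163) and Hoxb4 did not (-0.30, adjusted p = 0.123). Set against the untreated libraries, cultured HSCs had lower Hoxa9 (-0.74, adjusted p = 7.58e-05) and Hoxa10 (-0.81, adjusted p = 0.000262), and Hoxb6 also passed (-0.99, adjusted p = 0.0123).

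At 10 days after 5-FU, exon-read levels of Hoxa3, Hoxa5 and all 5 Hoxb genes were lower in CD48+ HPCs than in CD48- HSCs. Of the 10 genes 7 passed, all lower, where 12.5% of the 12719 genes tested were lower, and the libraries of 5 did not overlap, against 13.6% of all genes. The median of the 10 was -0.75, against -0.01 over all genes. Hoxb5 and Hoxb6 had the lowest fold changes, while Hoxa7, Hoxa9 and Hoxa10 did not pass, with changes of -0.23, -0.14 and -0.20 and adjusted p of 0.47, 0.414 and 0.41.

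Hoxb5 read 2.60, 7.28, 3.08 and 4.84 CPM in HPCs, against 11.3, 13.4, 16.9 and 8.32 CPM in HSCs. Each HPC library lay below each HSC library, and the change was -1.48 ± 0.34 (SE, adjusted p = 0.00922), a 2.797-fold lower level. Hoxb6 read 1.60, 2.25, 1.29 and 2.03 CPM in HPCs, against 3.78, 6.81, 5.82 and 3.05 CPM in HSCs (-1.44 ± 0.37, adjusted p = 0.0159). Hoxb4 read 17.8, 27.1, 24.0 and 31.5 CPM in HPCs, against 48.2, 37.5, 54.4 and 33.4 CPM in HSCs (-0.79 ± 0.20, adjusted p = 0.0131). These 3 genes lay apart in all 8 libraries, by a narrow margin for Hoxb4.

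Hoxb3 read 18.4, 45.7, 26.4 and 24.98 CPM in HPCs, against 51.9, 48.9, 79.1 and 46.9 CPM in HSCs (-0.97 ± 0.26, adjusted p = 0.0182). HPC replicate 2 stood well above the other HPC libraries and just below the lowest HSC library. Hoxb2 averaged 6.36 ± 2.07 CPM in HPCs and 12.3 ± 4.4 CPM in HSCs (SD), with overlap (-0.95 ± 0.31, adjusted p = 0.043). Hoxa3 read 87.3, 119, 109 and 111 CPM in HPCs, against 179, 153, 190 and 177 CPM in HSCs, with no overlap (-0.71 ± 0.11, adjusted p = 0.00118). Hoxa9 read 51.6, 59.8, 50.3 and 61.3 CPM in HPCs, against 68.4, 69.2, 58.2 and 51.3 CPM in HSCs, and these ranges overlapped, with a 95% interval of -0.41 to 0.12 for its change.

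Several calls of this comparison did not hold in every fit with 1 library left out, though no change turned sign. The count of 7 was 3 without HPC replicate 1 (Hoxa3, Hoxb4 and Hoxb5 remained) and 4 without HSC replicate 3 or HPC replicate 4. Without HPC replicate 1, HPC replicate 4 or HSC replicate 3, Hoxb3 had adjusted p of 0.0503, 0.051 and 0.052, and Hoxb6 had 0.0511 without HPC replicate 1. Hoxa5 did not pass without any 1 of HSC replicates 1, 2 and 3 and HPC replicates 1 and 4 (adjusted p 0.0602 to 0.0836), nor Hoxb2 without any 1 of HSC replicates 1, 2 and 3 and HPC replicates 1, 3 and 4 (0.0664 to 0.121). Without the libraries that carried transcripts of other cells, 4 genes passed, and Hoxb3, Hoxb4 and Hoxb6 did not, with changes of -0.76, -0.75 and -1.44 (adjusted p 0.127, 0.0523 and 0.056) in a fit with fewer libraries. Macrophage markers summed to 134 to 1109 CPM in HPCs and 51.5 to 284 CPM in HSCs, and HSC and sort gate markers to 1825 to 2192 CPM in HPCs and 3043 to 3658 CPM in HSCs. Megakaryocyte markers summed to 187 to 229 CPM in HPCs and 721 to 1071 CPM in HSCs, and lymphoid markers to 5.29 to 18.1 CPM in HPCs and 1.06 to 1.39 CPM in HSCs. The megakaryocyte sum was mostly Vwf (means of 142 CPM in HPCs and 866 CPM in HSCs). Gp9 went with it (10.1 and 16.8 CPM), while Itga2b went the other way (56.0 and 29.4 CPM). Erythroid markers summed to 285 to 390 CPM in HPCs and 239 to 9413 CPM in HSCs, with overlap (medians 336 and 298 CPM). Myeloid granule markers had medians of 115 CPM in HPCs and 77.7 CPM in HSCs. In the same order, medians were 141.4 and 163 CPM for endothelial and 39.8 and 28.6 CPM for stromal markers. Their part was not tested.

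The HSCs taken at day 10 in the CD48 experiment and those taken at day 10 in the 5-FU experiment carry the same gate and day in the labels. Hoxa3 averaged 175 ± 16 CPM in the CD48 experiment (n = 4) and 132 ± 20 CPM in the 5-FU experiment (n = 6), Hoxb4 43.4 ± 9.6 and 28.2 ± 2.9 CPM, Hoxb3 56.7 ± 15.1 and 40.8 ± 4.7 CPM, and Hoxa9 61.8 ± 8.6 and 49.0 ± 10.2 CPM in the same order (SD). No test was run between experiments.

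CPM values were also added up over genes that share a span or an antisense partner, so that a value stands for the group and not for 1 gene. Hoxa3 to Hoxa6, counted together, held 232 ± 25 CPM in untreated HSCs, 130 ± 15 CPM at day 6 and 171 ± 26 CPM at day 10, then 61.8 ± 7.4 CPM in cultured and 249 ± 27 CPM in uncultured HSCs, and 140 ± 17 CPM in HPCs and 225 ± 15 CPM in CD48- HSCs (SD). Hoxb3 with Hoxb4 held 78.9 ± 10.7, 44.2 ± 5.5 and 69.1 ± 7.4 CPM over the 5-FU series, 28.5 ± 3.3 CPM in cultured and 84.4 ± 13.4 CPM in uncultured HSCs, and 54.0 ± 15.1 CPM in HPCs and 100 ± 24 CPM in HSCs. Hoxb5 with Hoxb6 held 17.6 ± 1.3, 9.45 ± 0.77 and 14.9 ± 3.9 CPM over the 5-FU series, 7.79 ± 1.20 CPM in cultured and 19.5 ± 3.4 CPM in uncultured HSCs, and 6.24 ± 2.51 CPM in HPCs and 17.3 ± 5.1 CPM in HSCs. For all 3 sums the day 6, cultured and HPC libraries lay below every library of the group each was set against. A read that matches 2 genes of a sum can enter it more than once, and no test was run on these sums. Hoxb5 and Hoxb6 do not overlap each other, and Hoxb5os, which overlaps both, is not in their sum. That sum therefore does not settle the reads they share with Hoxb5os.

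**Figure D4:**
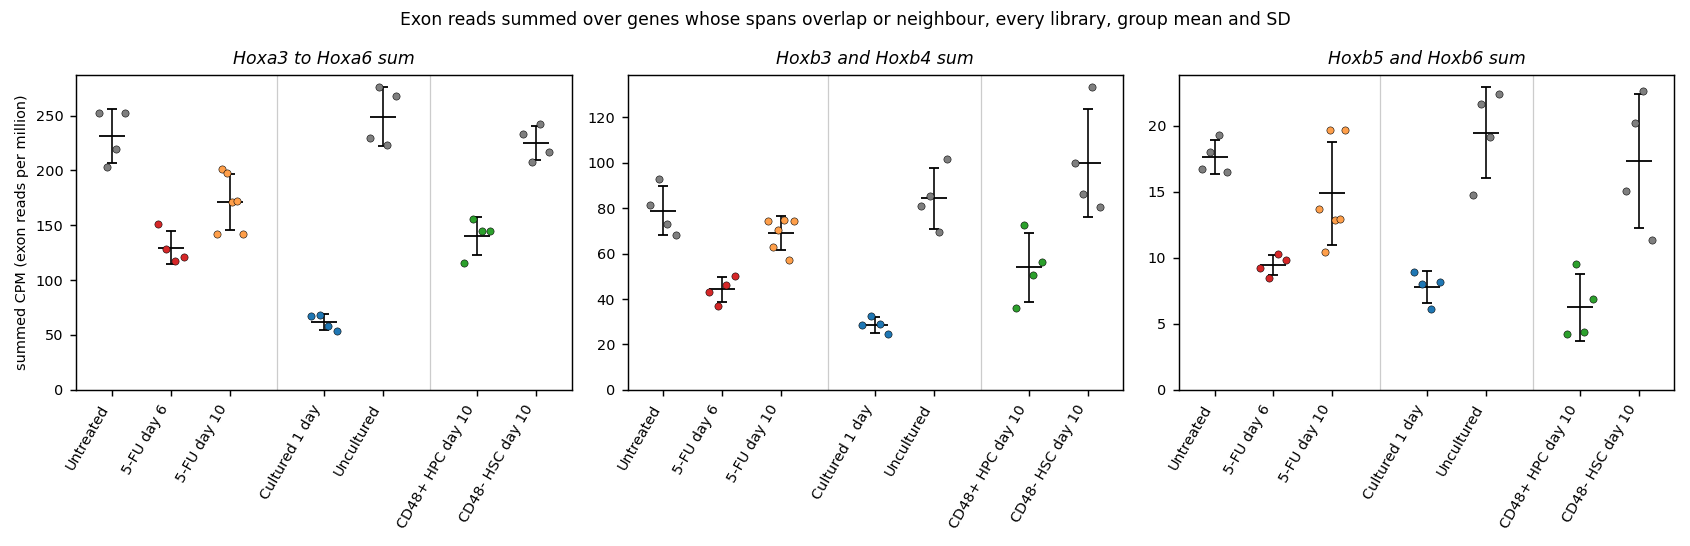
Summed CPM of Hoxa3 to Hoxa6, of Hoxb3 with Hoxb4 and of Hoxb5 with Hoxb6 in every library (points), with group mean and SD (bars), each panel with its own linear axis from 0. In each panel the day 6, cultured and HPC libraries sit below all untreated, uncultured and CD48- HSC libraries of their experiment.

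Counted on unique exon reads, Hoxa3 fell at day 6 (-0.91, adjusted p = 7.09e-05), in culture (-2.31, adjusted p = 1.1e-08) and in HPCs (-0.73, adjusted p = 0.000977), and Hoxb3 changed by -0.51 (adjusted p = 0.0395), -1.68 (1.82e-05) and -0.93 (0.0138) in those comparisons. For Hoxb5 the reads across exon junctions were 19 in untreated HSCs, 7 at day 6 and 36 at day 10, 9 in cultured and 29 in uncultured HSCs, and 8 in HPCs and 23 in CD48- HSCs, summed over each group's libraries. Scaled to CPM of all exon reads of the group, these are 0.763 (exact 95% Poisson interval 0.459 to 1.19), 0.244 (0.0981 to 0.503) and 0.804 (0.563 to 1.11), then 0.308 (0.141 to 0.584) and 1.14 (0.767 to 1.64), then 0.19 (0.0822 to 0.375) and 0.672 (0.426 to 1.01). The intervals cover counting error only. For Hoxb4 the junction reads were 4 in untreated HSCs, 4 at day 6 and 13 at day 10, 3 in cultured and 21 in uncultured HSCs, and 14 in HPCs and 10 in CD48- HSCs. Among the 5 comparisons, the intervals of Hoxb4 lay apart for culture alone, at 0.103 CPM (0.0212 to 0.300) in cultured and 0.829 CPM (0.513 to 1.27) in uncultured HSCs. Of the 21 uncultured reads, 13 came from replicate 4, so this gap leans on 1 library. For Hoxa5 they were 4 in untreated HSCs (0.161 CPM, 0.0438 to 0.411), 9 at day 6 (0.314 CPM, 0.143 to 0.596) and 15 at day 10 (0.335 CPM, 0.187 to 0.552), then 10 in cultured (0.342 CPM, 0.164 to 0.629) and 5 in uncultured HSCs (0.197 CPM, 0.0641 to 0.461). The intervals of Hoxa5 overlapped at day 6 and in culture, where junction reads were not lower as exon reads were, and lay apart at 0.119 CPM (0.0387 to 0.278, 5 reads) in HPCs and 0.613 CPM (0.380 to 0.938, 21 reads) in CD48- HSCs. For Hoxa3, junction-read intervals lay apart at day 6, in culture and in HPCs. For Hoxb3 they overlapped in each, and junction reads were not lower at day 6 (0.628 CPM) than in untreated HSCs (0.562 CPM). Hoxb3 had 0.274 CPM in cultured and 0.513 CPM in uncultured HSCs, and 0.310 CPM in HPCs and 0.584 CPM in CD48- HSCs. Hoxa7 had 2.61 CPM in untreated HSCs, 2.23 CPM at day 6 and 2.57 CPM at day 10, with overlap, and its intervals lay apart in culture. Hoxb6 had 1 to 5 junction reads in each group. Intron reads, which reflect unspliced RNA and any transcript inside an intron, also fell for Hoxa3 and Hoxb3 at day 6 (-0.48 and -0.44, adjusted p = 0.00422 and 0.0105), in culture (-1.29 and -0.998, adjusted p = 6.72e-06 and 5.95e-05) and in HPCs (-0.43 and -0.81, adjusted p = 0.0191 and 0.00367).

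Of the other 29 Hox genes in the files, those that reached a mean of 1 CPM in at least 1 group included Hoxa2, Hoxa4, Hoxa6, Hoxb7, Hoxb8, Hoxb9, Hoxc4, Hoxc5 and Hoxc6. No Hoxd gene reached it, with 23 exon reads in all over the 30 libraries. Hoxa2 fell at day 6 (-1.38, adjusted p = 0.000778) and in culture (-1.91, 8.43e-05), and Hoxa6 fell at day 6 (-0.86, 0.00637), in culture (-1.66, 7.76e-06) and in HPCs (-0.58, 0.0419). Hoxc6 averaged 8.30 ± 4.03 CPM in untreated HSCs, 2.00 ± 0.67 CPM at day 6 and 6.02 ± 2.67 CPM at day 10, and it fell at day 6 (-2.05, adjusted p = 0.00163) and in culture (-1.59, 0.0194). Hoxc6 was higher at day 10 than at day 6 (1.59, adjusted p = 0.0121), though not without the libraries that carried transcripts of other cells (1.34, adjusted p = 0.0543). Hoxb8 fell in HPCs (-1.94, adjusted p = 0.0228). It averaged 1.63 ± 0.62 CPM in untreated HSCs, 1.22 ± 0.61 CPM at day 6 and 3.09 ± 1.14 CPM at day 10, and was higher at day 10 than at day 6 (1.34, adjusted p = 0.0223), with overlap. Against untreated HSCs, Hoxb8 at day 10 had 0.92 and an adjusted p of 0.0846. The day 10 against day 6 call of Hoxb8 did not hold without any 1 of day 6 replicates 2, 3 and 4 (adjusted p 0.0651 to 0.0825). Hoxc6 in culture did not pass without uncultured replicate 4 (-0.84, adjusted p = 0.121) or cultured replicate 2 or 4 (adjusted p 0.0574 and 0.0524). In HPCs, Hoxb8 did not pass without any 1 of HPC replicates 1, 2 and 3 and HSC replicates 2 and 3 (adjusted p 0.0559 to 0.0727), nor Hoxa6 without any 1 of HPC replicates 1, 3 and 4 and HSC replicates 1, 2 and 3 (0.0673 to 0.110). On intron reads, Hoxa6 did not pass at day 6, in culture or in HPCs (adjusted p 0.346, 0.485 and 0.851). Hoxa4 and Hoxa6 also lie inside the span of Hoxa3.

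Non-coding entries of the clusters have no exon in these files, so they were tested on intron reads. Hoxaas2, an antisense gene of the Hoxa cluster, fell at day 6 (-0.67 ± 0.18, adjusted p = 0.0111) and in culture (-1.73 ± 0.21, adjusted p = 7.92e-05), and Hoxaas3 fell in culture (-1.92 ± 0.26, adjusted p = 0.000169). Hoxaas3 held 1.76 ± 0.29 CPM of intron reads in cultured and 7.08 ± 0.91 in uncultured HSCs (SD). Hoxaas3 lies almost wholly inside the span of Hoxa3 and Hoxaas2 overlaps its end, so reads from there and intron reads of Hoxa3 cannot be told apart. Hoxb5os, which spans Hoxb5 and Hoxb6, had -0.54 at day 6, -0.47 in culture and -0.93 in HPCs, with adjusted p of 0.206, 0.153 and 0.0679.

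The partners of HOX proteins moved in both directions. Of 12 listed TALE genes and partners 10 were tested at day 6, where 6 fell and 2 rose (list median -0.63, with 25.7% of all genes called in each direction), while in culture 7 of 9 tested fell and 1 rose (-1.01, with 33.8% in each direction), and in HPCs 4 of 10 fell and 1 rose (-0.28, with 12.5% of all genes lower and 14% higher). Meis1, which binds DNA with HOXA9, averaged 591 CPM in untreated HSCs, 400 CPM at day 6 and 451 CPM at day 10, and fell at day 6 (-0.56, adjusted p = 1.3e-05), at day 10 (-0.39, 0.000287), in culture (-0.68, 2.26e-06) and in HPCs (-0.38, 0.0109). Pbxip1, another gene of this list, fell at day 6 (-1.31, 2.78e-06) and in culture (-2.35, 2.46e-09), with a larger fall in culture (difference -1.06, 0.000466), and was higher at day 10 than at day 6 (0.86, 0.000267), as was Tgif1 (0.79, 0.000577). Meis3 was lower at day 10 than in untreated HSCs (-2.21, adjusted p = 0.00261). Pknox1, another TALE gene, rose at day 6 (0.42, 0.000838), in culture (0.95, 1.45e-05) and in HPCs (0.53, 0.00161). Meis1 in HPCs did not pass without the libraries that carried transcripts of other cells (-0.35, adjusted p = 0.0813).

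Of 20 listed genes known to regulate HOX transcription 15 were tested. At day 6, 7 rose and 6 fell (median 0.02), in culture 6 rose and 6 fell (0.16), and in HPCs 2 rose and 4 fell (0.12), against the shares of all genes given for the partners (25.7% each way at day 6, 33.8% each way in culture, 14% higher and 12.5% lower in HPCs). Kmt2a read 899, 915, 916 and 838 CPM at day 6, against 1443, 1415, 1313 and 1388 CPM in untreated HSCs, with no overlap (-0.64, adjusted p = 1.28e-06). It fell in culture (-1.12, 2.92e-08) and in HPCs (-0.49, 0.00796), and at day 10 it was higher than at day 6 (0.53, 2.68e-05). Mllt3 (AF9), a reader protein that works with the AFF1 and AFF4 elongation factors, fell at day 6 (-0.84, adjusted p = 2.13e-05), in culture (-1.47, 1.23e-08) and in HPCs (-1.15, 0.000124). The fall in culture was larger than that at day 6 for Kmt2a (-0.50, adjusted p = 0.00369) and Mllt3 (-0.65, 0.00492). Aff4 fell at day 6 (-0.53, adjusted p = 9.69e-06) and was higher at day 10 than at day 6 (0.46, 0.000122). Ctcf, whose product sets boundaries within Hox clusters, rose at day 6 (0.57, adjusted p = 1.47e-05), at day 10 (0.46, 0.000113) and in culture (0.55, 6.33e-06), and Hmgb3 rose at day 6 (0.64, 0.000205), at day 10 (0.58, 0.000544), in culture (0.65, 0.000204) and in HPCs (0.64, 0.0247). In HPCs, Hmgb3 did not pass without any 1 of HPC replicates 1 and 4 and HSC replicates 1, 3 and 4 (adjusted p 0.0548 to 0.0719), and without the libraries that carried transcripts of other cells neither Hmgb3 (0.42, 0.162) nor Kmt2a (-0.46, 0.0544) passed. On intron reads, Meis1, Kmt2a and Mllt3 did not pass at day 6, with changes of -0.18, -0.13 and -0.08 and adjusted p of 0.136, 0.366 and 0.652. Nor did Meis1 at day 10 (-0.12, 0.336) and in HPCs (-0.19, 0.144), Pbxip1 at day 6 (-0.52, 0.144) and at day 10 against day 6 (0.51, 0.150), Pknox1 at day 6 (0.31, 0.170) and in HPCs (0.34, 0.0977), or Hmgb3 in any of its 4 comparisons (adjusted p 0.0851 to 0.844) pass on intron reads.

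**Figure D5:**
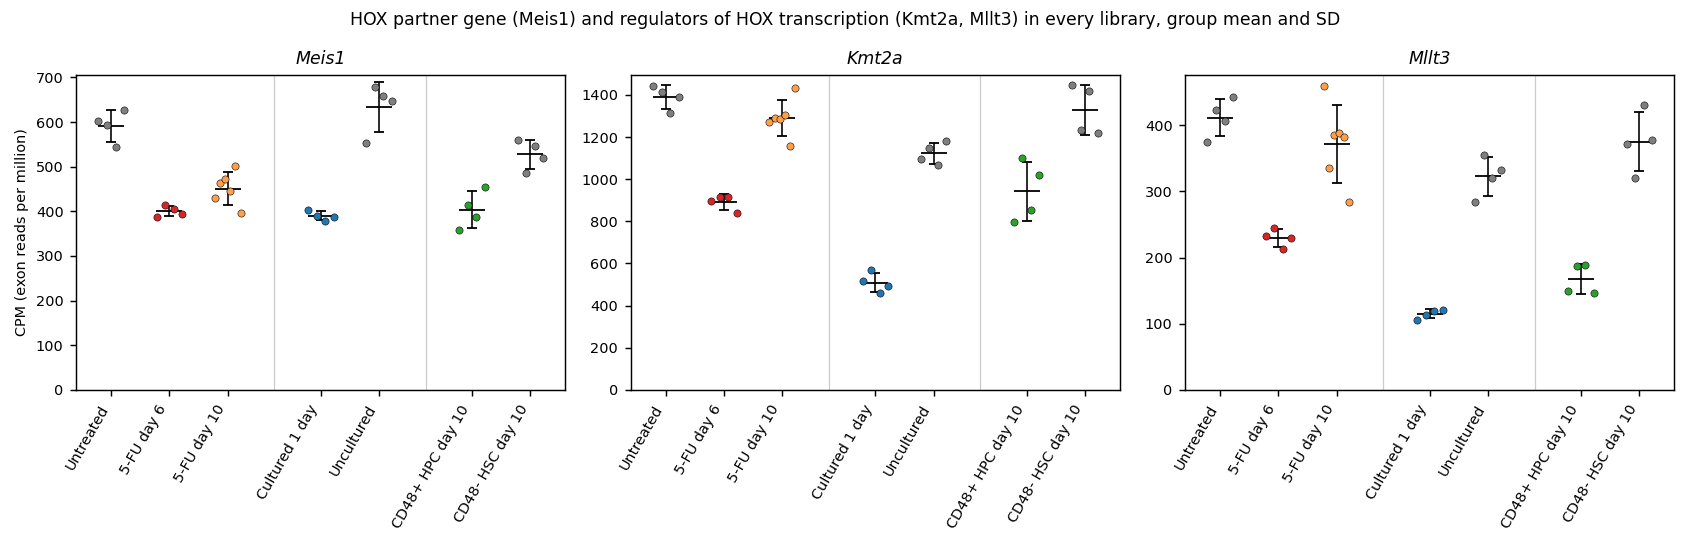
CPM of Meis1, Kmt2a and Mllt3 in every library (points), with group mean and SD (bars), each panel with its own linear axis from 0. In every panel the day 6, cultured and HPC libraries lie below all libraries of the untreated, uncultured and CD48- HSC groups they are set against. Only genes that fell are drawn, while others of the same lists, among them Pknox1, Ctcf and Hmgb3, rose in some of these comparisons.

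Of 17 listed genes reported as HOXA9 or MEIS1 targets in blood cells, 16 were tested. At day 6, 8 fell and 2 rose (median -0.53), in culture 10 fell and 2 rose (-0.62), and in HPCs 6 fell and 5 rose (0.10), where 25.7% of all genes were called in each direction at day 6, 33.8% in each direction in culture, and 12.5% lower and 14% higher in HPCs. Meis1 stands in this list as well as in that of the partners. Lmo2 fell at day 6 (-0.83, adjusted p = 5.78e-06), Igf1r at day 6 (-0.79, 6.9e-06) and in culture (-1.10, 6.45e-08), and Flt3, a receptor of progenitors, in culture (-2.76, 2.56e-08). In HPCs Cd34 (1.57, 3.54e-05) and Cdk6 (1.42, 8.05e-05) rose. Against untreated HSCs, Camk2d rose (0.59, adjusted p = 7.41e-05) and Hlf, a transcription factor of HSCs, fell (-1.04, 0.00015) at day 10. Myb (0.84, 3.11e-05) and Sox4 (1.34, 0.000107) were higher at day 10 than at day 6. Among genes whose products bind HOX proteins, Gmnn, which encodes the replication inhibitor geminin, rose at day 6 (1.97, adjusted p = 4.54e-06), at day 10 (1.21, 0.000423), in culture (2.63, 1.57e-08) and in HPCs (1.29, 0.00983). On intron reads, Gmnn at day 10 (0.41, adjusted p = 0.286) did not pass. Gmnn read 41.2, 37.3, 39.7 and 38.8 CPM in cultured HSCs, against 5.88, 5.78, 8.24 and 5.72 CPM in uncultured HSCs. Btg2 fell at day 6 (-4.06, adjusted p = 3.76e-06) and in culture (-3.65, 0.000468), and at day 10 it was higher than at day 6 (3.28, 0.000105), and Btg1 also fell at day 6 (-1.66, adjusted p = 4.14e-07) and was higher at day 10 than at day 6 (1.33, 1.44e-05). Crebbp, which encodes a histone acetyltransferase, fell in culture (-0.62, adjusted p = 9.4e-07). In HPCs it fell (-0.32, adjusted p = 0.036), but not without any 1 of HPC replicates 1, 3 and 4 and HSC replicates 1 and 3 (0.0538 to 0.113), nor without the libraries that carried transcripts of other cells (0.103) or on intron reads (0.455).

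The pattern of Hoxb4 over the 30 libraries, centred within each experiment, was most like that of Kmt2a (Pearson r = 0.955), followed by Pcmtd2 (0.937) and Snx33 (0.936), among 9721 genes with a mean of at least 10 CPM. For Hoxa9 the closest genes included Sdsl (0.941) and Klhl3 (0.931). The listed Hoxb2, Hoxb5 and Hoxb6 did not reach this mean and were not compared. Among the other listed Hox genes, Hoxa9 was most like Hoxa5 (0.912, rank 8 of all genes compared), whose exon reads are mostly shared. Hoxb4 was most like Hoxb3 (0.904, rank 53), with which it shares reads, and Hoxa9 with Hoxb4 gave 0.687. These values describe libraries that share experiments, groups and scaling.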

How the data were processed

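Each library was deposited as a table of counts per gene entry on mm10, per the submitters' processing notes; no label or header names the aligner or the counting settings. Per the file headers, the authors' counts include total exon reads, unique exon reads, exon-exon reads and intron reads. Nextera XT, the kit named in the labels' protocols, does not mark strand.

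Total exon reads were summed by NCBI gene identifier (48737 entries, 46113 genes; no Hox gene described here had more than 1 entry). Per experiment, edgeR 4.0.16 (R 4.3.3) was run with its default expression filter, TMM scaling and the quasi-likelihood test, and p-values were adjusted over all genes tested (Benjamini-Hochberg, threshold 0.05). The culture and day 6 effects were compared in 1 fit of 30 libraries. CPM used TMM-scaled sizes of all 30 libraries. The fit was tested on simulated counts. Total depth ran from 5208722 to 12243208 exon reads. Groups were taken from the labels. Counts of all libraries of a group differed by more than sampling noise (chi-square per degree of freedom 2.44 to 43.3).

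Alternatives were DESeq2 1.42.0, RLE size factors, no filter, a replicate block, fits with other libraries, unique or intron reads, the other control group and leaving out libraries. The fits with libraries that carried transcripts of other cells left out together, the sums over shared spans and the junction reads were added after seeing the data. The genes, lists and tests were chosen with earlier results of these data known. Outside the 10 genes, the text names the 2 genes of each list with the smallest p in a comparison, Meis1, Kmt2a, Hox genes that reached 1 CPM and, for likeness, genes among the 3 closest to Hoxa9 and to Hoxb4. Some genes and sequences that these rules name are not reported here. No amino acid sequence was used here. Figures were drawn with matplotlib 3.10.9.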

Additional observations from a re-analysis of the deposited data

Results flagged for a closer look

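In 6 of the 70 sets of 1 gene in 1 group, 1 library stood apart from the others by Dixon's criterion, which chance flags in about 1 of 20 such sets. In CD48- HSCs at day 10, replicate 4 was low for Hoxa5 (20.5 CPM, with the others at 28.6 to 30.01 CPM) and for Hoxa7 (14.8 CPM, with the others at 18.9 to 19.6 CPM), and replicate 3 was high for Hoxb3 (79.1 CPM, with the others at 46.9 to 51.9 CPM). Both libraries also carried transcripts of other cells. At day 6, Hoxa9 was low in replicate 1 at 43.6 CPM, although the others read 44.8 to 44.9 CPM. In cultured HSCs, Hoxb4 was high in replicate 2 at 15.9 CPM, and in untreated HSCs, Hoxb6 was low in replicate 4 at 3.58 CPM.

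The change in culture and the change at day 6 after 5-FU differed, in edgeR's test of the difference, for Hoxa3 (-1.23 on the log2 scale), Hoxa5 (-1.12), Hoxa9 (-0.87), Hoxa10 (-0.90) and Hoxb3 (-0.90). In each, culture had the lower value.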

How the results depend on the processing

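Changes of the 10 genes in 6 comparisons kept their direction and side of the threshold in 60 of 60 cases with DESeq2 and in 60 of 60 with RLE size factors, and in 545 of 600 with 1 library left out. Counting unique exon reads called 3 genes at day 6, 1 at day 10 against day 6, 5 in culture and 2 in HPCs, with only 6 genes testable. Intron reads called 3 genes at day 6, 2 at day 10 against day 6, 5 in culture, 3 in HPCs and 1 in the difference of effects. At day 10 against untreated they called 0 of the 8 genes tested, also 0 at an unadjusted p under 0.05. Over all genes, intron reads called 4063 at day 6, 2815 at day 10, 2542 at day 10 against day 6 and 1755 in HPCs. Changes that turned sign on intron reads were Hoxa10 at day 6 (0.013), Hoxa10, Hoxb3, Hoxb5 and Hoxb6 at day 10 (0.33, 0.056, 0.40 and 0.071), Hoxa9 and Hoxa10 at day 10 against day 6 (-0.091 and 0.31), and Hoxa7, Hoxb4, Hoxb5 and Hoxb6 in the difference (0.028, 0.38, 0.40 and -0.058), besides Hoxa2 and Hmgb3 at day 6 (0.16 and -0.20) and Hmgb3 at day 10 (-0.10). The cause was not tested. Against the other control group, Hoxb2 turned sign at day 10 (-0.035) and in culture (0.00098). At day 10, no filter left 2 calls. The labels do not say whether replicate numbers pair samples. Correlations of same-numbered libraries were -0.305 to 0.161 over 20 pairs (1 over 0.1), which cannot show that samples were not taken in pairs. The replicate block called 6, 1, 3, 8 and 5 of the 10 genes in the 5 comparisons, and 6397, 3639, 3271, 8141 and 2657 over all genes. Without libraries that carried transcripts of other cells, HPCs had 4 calls, and 2001 over all genes.

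With 1 library left out, calls ran from 2 to 4 at day 10 and 3 to 7 in HPCs (2139 to 3496 over all genes, lowest without HPC replicate 1). Ranges that crossed 0 were Hoxa5 (-0.33 to 0.043), Hoxb2 (-0.046 to 0.13), Hoxb3 (-0.11 to 0.0092) and Hoxb5 (-0.17 to 0.032) at day 10 and Hoxb2 in culture (-0.16 to 0.057). Of 1122 checks of other named genes 1061 kept direction and side.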
